A study of Mus musculus with 8 samples.

Results

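The cell cycle genes described here were 38 of the 19945 genes counted by single cell RNA sequencing (scRNA-seq) of islets from vehicle- and FAKi-treated mice. They were picked by name for their textbook roles. They comprised 18 genes of the G2 phase and mitosis, 12 genes of DNA replication and its nucleotide supply, 5 genes that drive the G1 phase and entry into S phase, and 3 inhibitors of cyclin-dependent kinases. All 38 were found in the count table under these symbols.

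A dividing cell passes from growth in G1 through DNA synthesis in S phase and a second gap, G2, to mitosis, and each step is driven by a cyclin bound to a cyclin-dependent kinase. The D-type cyclins with *Cdk4* or *Cdk6* release E2F factors from the retinoblastoma proteins, E2F factors turn on the replication genes, and the mitosis genes follow later through a separate set of promoter elements. Adult β-cells divide rarely, and mouse β-cells are known to rely on D-type cyclins and *Cdk4* when they do.

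Both libraries came from wild-type mice that were 6 to 12 weeks of age when treatment began. The mouse strain of this experiment is not given in the sources used here. FAKi (PF562271, an inhibitor of focal adhesion kinase) or vehicle was given by oral gavage 2 times per day for 3 weeks, FAKi at 50 mg/kg. Islets were isolated once 10 further days without dosing had passed. Islets of 5 mice, about 1200 per condition, were handpicked, pooled and dispersed, so each condition was 1 library, sequenced on 4 lanes. No test across samples was possible, so values are given for both libraries, and the intervals beside them cover counting error only.

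The vehicle library held 3776 cells and the FAKi library 3183 cells, with a median of 10102 and 13688 unique molecular identifiers (UMIs, each standing for 1 captured RNA molecule) per cell. The authors sorted the cells into 12 classes. In 10 of them, at least 82.9% of the cells of either library held a UMI of the defining markers of the class. The exceptions were the B cells of the FAKi library, which were only 9, and the class annotated as T cells. In that class, 125 of 168 cells of the vehicle library held a UMI of *Cd3d*, *Cd3e* or *Cd3g*, the invariant chains of the T cell receptor, but only 6 of 28 cells of the FAKi library did. Of the 28, 12 drew between 44.3% and 56.3% of their UMIs from *Ins1* and *Ins2* and held no *Cd3d*, *Cd3e* or *Cd3g* UMI, as did 3 of the 168. These 15 are called the insulin-rich droplets of the class annotated as T cells, and results that rest on them are given with and without them. The libraries shared 4 cell barcodes, and scrublet marked 68 and 57 cells as doublets, none of them among these 15.

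Among the mitosis genes, *Mki67* encodes the Ki-67 protein that coats mitotic chromosomes and *Top2a* the topoisomerase that untangles replicated DNA. *Cdk1* is the kinase that starts mitosis, with *Ccna2*, *Ccnb1* and *Ccnb2* as its cyclins. *Aurka*, *Aurkb* and *Plk1* are mitotic kinases, *Birc5* (survivin) is a partner of *Aurkb*, and *Tpx2* and *Nusap1* act on spindle microtubules. *Cenpa*, *Cenpe* and *Cenpf* are proteins of the centromere and kinetochore, *Bub1* and *Bub1b* guard the attachment of chromosomes to the spindle, and *Ube2c* helps to destroy cyclins at the exit from mitosis.

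Promoter sequence is shown because mitosis and replication genes are known to be turned on through different promoter elements. RefSeq promoter windows of GRCm38.p6, the reference that the submitters' build mm10 names, covered 30 of the 38 genes in 32 windows of 300 bases, 250 before the start of the transcript and 50 after it. The elements searched on both strands were the CHR (TTTGAA, or TTCAAA on the other strand), the CCAAT box (CCAAT or ATTGG) and E2F sites (TTTGGCGC, TTTCGCGC, TTTCCCGC or TTTGCCGC, and their reverse complements). The CHR was present in 10 of 15 windows of mitosis genes, 1 of 11 windows of replication genes and none of 3 windows of G1 drivers, against 17.9% of all 32851 windows. E2F sites were present in 4 of 11 windows of replication genes and 1 of 15 windows of mitosis genes, against 2.26% of all windows. The CCAAT box was in 13 of 15 and 9 of 11 windows of these groups, against 37.4% of all windows. A CHR together with at least 2 CCAAT boxes was found in 8 of 15 windows of mitosis genes, in none of the 11 windows of replication genes and in 2.09% of all windows.

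The upstream stretches of 4 mitosis genes and of 1 replication gene are shown, since they hold both kinds of arrangement; they are written 5′ to 3′ up to the last base before the transcript start, with matches to the 3 elements in capitals.
*Top2a*, chr11:99024190-99024389, - strand: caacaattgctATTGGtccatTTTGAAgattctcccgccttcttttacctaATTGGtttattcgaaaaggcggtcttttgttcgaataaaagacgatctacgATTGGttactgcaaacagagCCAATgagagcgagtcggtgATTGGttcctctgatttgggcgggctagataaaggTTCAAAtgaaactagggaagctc
*Ube2c*, chr2:164769729-164769928, + strand: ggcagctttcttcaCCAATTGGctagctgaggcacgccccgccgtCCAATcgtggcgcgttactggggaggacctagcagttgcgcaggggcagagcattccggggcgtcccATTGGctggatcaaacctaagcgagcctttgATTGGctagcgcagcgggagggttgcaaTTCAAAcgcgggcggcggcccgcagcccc
*Cdk1*, chr10:69352913-69353112, - strand: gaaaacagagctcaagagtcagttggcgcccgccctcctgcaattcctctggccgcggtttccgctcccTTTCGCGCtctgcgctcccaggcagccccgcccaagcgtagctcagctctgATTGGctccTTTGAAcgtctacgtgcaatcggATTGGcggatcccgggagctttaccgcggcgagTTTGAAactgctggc
*Mki67*, chr7:135716380-135716579, - strand: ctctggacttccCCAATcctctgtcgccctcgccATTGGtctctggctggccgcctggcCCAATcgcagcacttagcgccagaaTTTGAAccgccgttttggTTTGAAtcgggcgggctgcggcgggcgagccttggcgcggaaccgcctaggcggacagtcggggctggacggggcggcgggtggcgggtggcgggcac
*Mcm6*, chr1:128359706-128359855, - strand: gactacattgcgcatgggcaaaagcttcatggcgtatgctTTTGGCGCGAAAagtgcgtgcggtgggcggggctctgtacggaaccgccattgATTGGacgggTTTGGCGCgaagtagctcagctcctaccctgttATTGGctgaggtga
*Top2a*, *Ube2c*, *Cdk1* and *Mki67* each held at least 1 CHR and at least 2 CCAAT boxes in these stretches, and *Mcm6* held 3 E2F sites, 2 of them overlapping, and no CHR. In *Ube2c*, 1 capital run holds CCAAT and its reverse complement in overlap. A match is a string of letters, and binding was not measured.

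Transcripts of *Mki67* or *Top2a* were found in 132 of 3776 cells of the vehicle library, 3.50% (95% Clopper-Pearson interval 2.93 to 4.13), and in 60 of 3183 cells of the FAKi library, 1.89% (95% interval 1.44 to 2.42). The class annotated as T cells had the highest share in both libraries as annotated, with 27 of 168 cells, 16.1% (95% interval 10.9 to 22.5), and 15 of 28 cells, 53.6% (95% interval 33.9 to 72.5). Macrophages stood at 15 of 129 cells, 11.6% (95% interval 6.66 to 18.5), and 7 of 55 cells, 12.7% (95% interval 5.27 to 24.5). Without the insulin-rich droplets, the T cell class held 24 of 165 cells, 14.5% (95% interval 9.55 to 20.9), and 3 of 16 cells, 18.8% (95% interval 4.05 to 45.6). The highest share in the FAKi library was then that of B cells, 2 of 9 cells, 22.2% (95% interval 2.81 to 60.0).

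**Figure D1:**
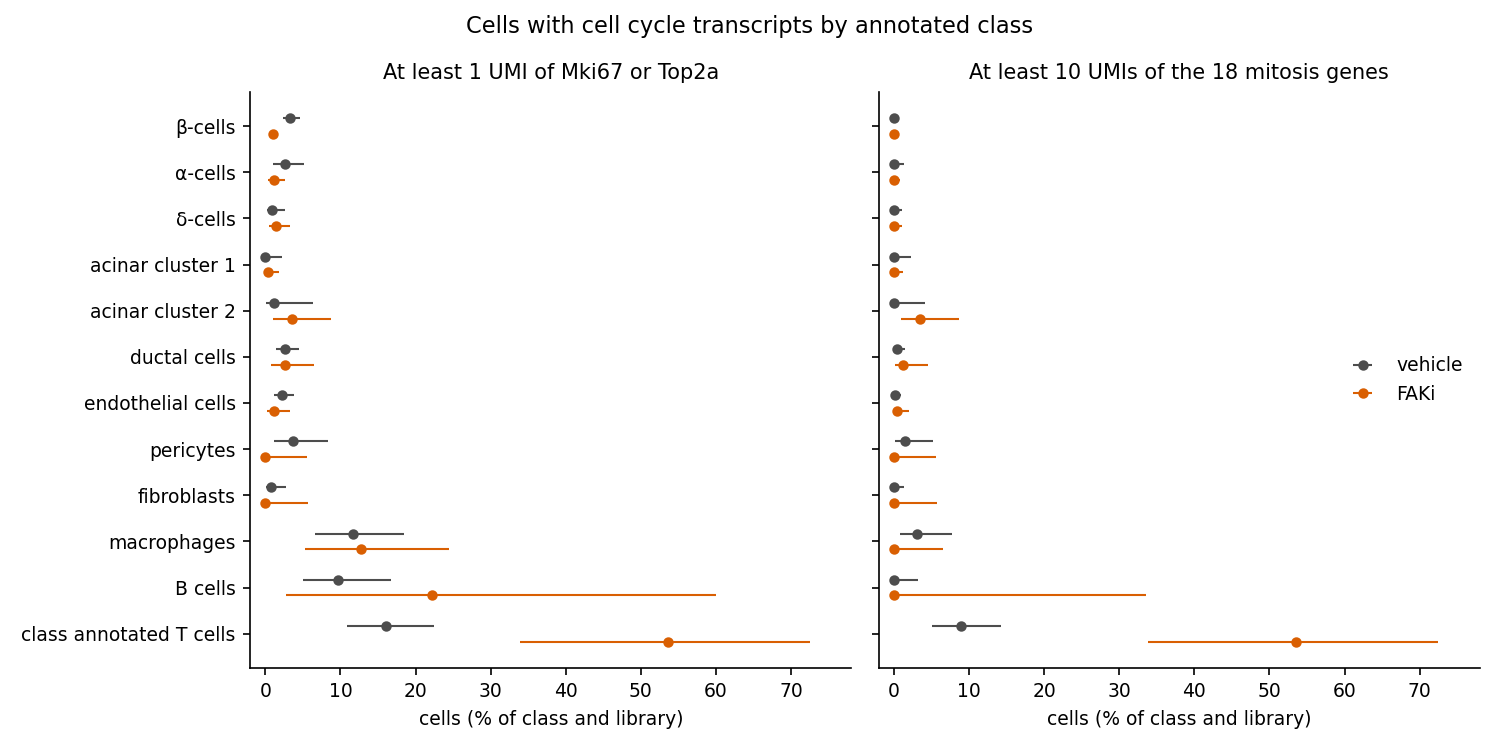
Percent of the cells of each annotated class and library (x axis) with at least 1 UMI of *Mki67* or *Top2a* (left) and with at least 10 UMIs of the 18 mitosis genes (right); points are the shares, lines the 95% Clopper-Pearson intervals, grey the vehicle library and orange the FAKi library. The class annotated as T cells stands at 16.1% and 53.6% on the left and at 8.93% and 53.6% on the right, while the endocrine classes stay under 4% on both sides.

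The shares of the endocrine classes lay below those over all cells of the same library, for β-cells of the vehicle library only slightly. In β-cells the share was 3.35% (95% interval 2.35 to 4.60) in the vehicle library, 36 of 1076 cells, and 1.05% (95% interval 0.574 to 1.75) in the FAKi library, 14 of 1336 cells. In α-cells it was 2.56% (95% interval 1.04 to 5.21), 7 of 273 cells, and 1.15% (95% interval 0.375 to 2.67), 5 of 434 cells. The shares of δ-cells were 0.915% (95% interval 0.189 to 2.65), 3 of 328 cells, and 1.40% (95% interval 0.455 to 3.23), 5 of 358 cells. Thus the intervals of the libraries were apart in β-cells and overlapped in α- and δ-cells.

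In the exocrine and stromal classes, 13 of 498 and 4 of 156 ductal cells had an *Mki67* or *Top2a* UMI in the vehicle and FAKi libraries, 2.61% and 2.56%. So did 12 of 543 and 3 of 269 endothelial cells, 2.21% and 1.12%. Acinar cluster 2 held 1 of 86 and 4 of 114 such cells, and acinar cluster 1, the shallowest class with a median of 1480 and 1140 UMIs per cell, held 0 of 161, which allows a share of up to 1.86% taking 0 as up to 3 counts (95% interval 0 to 2.27), and 1 of 297. The remaining counts were 5 of 137 and 0 of 64 pericytes, 2 of 264 and 0 of 63 fibroblasts, and 11 of 113 and 2 of 9 B cells. The counts of 0 in the FAKi library allow a share of up to 4.69% in pericytes (95% interval 0 to 5.60) and 4.76% in fibroblasts (95% interval 0 to 5.69). These limits are for cells with a UMI and not for cells that express the genes. No class lacks these genes by definition, so a share set by free RNA alone could not be read from the data, and the part of free RNA was not tested.

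Depth differed widely between classes, from a median of 1140 UMIs per cell in acinar cluster 1 to 30793 in β-cells. With each cell thinned to 1000 UMIs, *Mki67* or *Top2a* was left in 10 of 166 and 6 of 26 cells of the T cell class and in 3 of 117 and 1 of 47 macrophages, after 2, 2, 12 and 8 shallower cells were left out. In β-cells it was left in 1 of 1063 cells and 0 of 1320 cells, after 13 and 16 shallower cells were left out, so no order of the libraries could be read at that depth.

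Since 1 UMI of 1 gene is a weak sign of a dividing cell, cells were also counted by the sum of the 18 mitosis genes. At least 10 UMIs of these genes were found in 24 cells of the vehicle library and 23 cells of the FAKi library, 47 of all cells or 0.675%. These cells held 75.4% of all mitosis UMIs and 1.12% of all UMIs. Both genes, *Mki67* and *Top2a*, were detected in 35 of the 47. Of the 47, 30 carried the annotation T cells, 15 in each library. The others were 4 acinar cells of cluster 2, all in the FAKi library, 4 macrophages and 2 pericytes, all in the vehicle library, 2 and 2 ductal cells, 1 and 1 endothelial cells, and 1 β-cell of the FAKi library. No α-cell, δ-cell, fibroblast, B cell or cell of acinar cluster 1 reached the threshold. Nor did any of the 1076 β-cells of the vehicle library, which allows a share of up to 0.279% (95% interval 0 to 0.342).

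The mitosis genes chose these 47 cells, so their own enrichment there is no finding, and the replication genes are the measure that the choice did not use. The 12 replication genes had 12.1% of their UMIs in the 47 cells, the 5 G1 drivers 2.45% and the 3 inhibitors 1.78%, beside 1.12% of the UMIs of all genes. Replication UMIs per cell ran from 0 to 153 with a median of 13, against a median of 1 in all other cells. These are raw counts, and the 47 cells were also deeper, with a median of 23847 UMIs per cell against 11701. At least 20 replication UMIs were found in 22 of the 47 cells and in 18 of the other 6912. In the plot of these cells, both many and few replication UMIs occur at high mitosis counts.

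**Figure D2:**
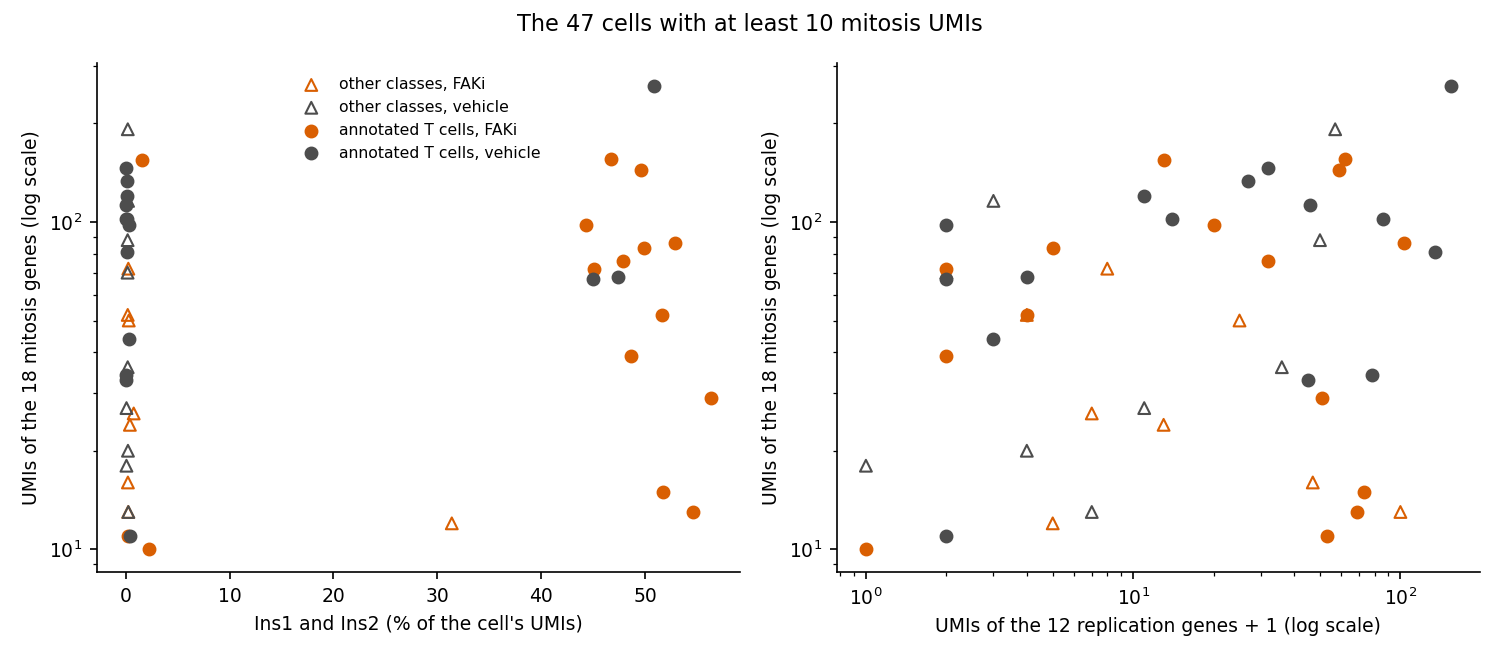
The 47 cells with at least 10 UMIs of the 18 mitosis genes, plotted by the percent of their UMIs from *Ins1* and *Ins2* (left, x axis) or by UMIs of the 12 replication genes plus 1 (right, x axis, log scale) against mitosis UMIs (y axis, log scale); filled circles carry the annotation T cells, open triangles another class, grey the vehicle library and orange the FAKi library. A group of 15 circles, 12 of them orange, lies between 44.3% and 56.3% insulin UMIs, and most other cells lie under 3%.

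The class annotated as T cells thus gathered cells with many mitosis UMIs that carried genes of different cell types. In the FAKi library 12 of its 15 cells with many mitosis UMIs were insulin-rich droplets. Of the other 3, 2 held at least 5 UMIs of the macrophage markers *Cd68*, *Adgre1* and *C1qa*, and 1 held no list of non-endocrine, non-acinar markers at that level. In the vehicle library, 3 of the 15 were insulin-rich and 1 drew 33.9% of its UMIs from *Gcg*. Of the other 11, 4 held at least 5 UMIs of the ductal markers *Krt19*, *Sox9* and *Cftr*, 3 of the T cell markers, 2 of the B cell markers, 1 of the macrophage markers and 1 of the mesenchymal markers, with 3 cells on more than 1 list and 3 on none. *Cd3d*, *Cd3e* or *Cd3g* was found in 4 and 0 of these cells of the vehicle and FAKi libraries, against 121 of 153 and 6 of 13 of the cells of the class that held neither many mitosis UMIs nor much insulin RNA. The class was drawn by the authors' clustering of the same cells, so this is a description of the annotation and not a test.

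The insulin-rich droplets carried genes of β-cells, and some also carried genes of other cell types. *Ins1* stood at 157696 and 156528 CPM (counts per 1000000 UMIs of the group) in those of the vehicle and FAKi libraries, and at 157500 and 154850 CPM in annotated β-cells. Insulin RNA chose the droplets, so a high *Ins1* level there is no finding. *Pdx1* and *Nkx6-1*, transcription factors of β-cells, were detected in all 15, at 208 and 193 CPM and at 284 and 191 CPM, next to 141 and 134 CPM and 309 and 266 CPM in β-cells. *Mafa*, a factor of mature β-cells, stood at 928 and 656 CPM next to 700 and 566 CPM, and *Chga*, a granule protein, at 2542 and 3367 CPM next to 4786 and 4682 CPM. *Ptprc*, the pan-leukocyte gene CD45, had no UMI in any of the 15. Their depth, a median of 23479 and 35859 UMIs per cell, stood next to 30793 and 30428 in β-cells. *G6pc2*, a glucose phosphatase of β-cells, was lower in the droplets, at 325 and 205 CPM next to 574 and 381 CPM. At least 5 UMIs of the macrophage markers were found in 1 of the 3 and 3 of the 12 droplets, with up to 13 and 16 UMIs, beside 3.07% and 2.02% of annotated β-cells. In the FAKi library 2 droplets also held 27 and 33 UMIs of the mesenchymal markers *Col1a1*, *Col3a1* and *Pdgfrb*, and 1 held 20 UMIs of the endothelial markers *Pecam1*, *Cdh5* and *Plvap*, while no annotated β-cell of that library held 5 of either list. Any non-acinar list reached 5 UMIs in 1 of 3 and 5 of 12 droplets, beside 8.83% and 5.01% of annotated β-cells, and 2 and 7 droplets held none. Acinar markers, common in β-cells, reached 5 UMIs in 0 of 3 and 6 of 12 droplets and in 30.0% and 50.5% of annotated β-cells. How far doublets of a β-cell with another cell make up these droplets was not tested.

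All 15 insulin-rich droplets held at least 10 mitosis UMIs, from 13 to 260, and *Mki67* or *Top2a* was detected in each. The 18 mitosis genes summed to 2735 CPM in the 3 droplets of the vehicle library and 1790.2 CPM in the 12 of the FAKi library, and to 4.93 and 3.36 CPM in annotated β-cells. A single droplet of the vehicle library, the deepest with 98511 UMIs, held 260 of the 395 mitosis UMIs of its group of 3. The 12 replication genes summed to 1087 and 975 CPM in the droplets and 61.2 and 51.6 CPM in β-cells. *Ccne2*, a cyclin of S phase entry, had 4 and 33 UMIs in the droplets or 27.7 and 68.5 CPM, next to 1.92 and 1.90 CPM in β-cells. The inhibitor *Cdkn1b* stood at 27.7 and 16.6 CPM next to 27.7 and 32.9 CPM in β-cells.

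Which library had the higher share among insulin-rich cells depended on whether these droplets were counted and on the threshold. Among annotated β-cells alone, at least 10 mitosis UMIs were found in 0 of 1076 cells of the vehicle library and 1 of 1336 cells of the FAKi library, 0.0749% (95% interval 0.00190 to 0.416). All 15 insulin-rich droplets of the T cell class passed this threshold, so the rise of the counts by 3 and 12 on adding them is fixed by their choice. With them, it was passed by 3 of 1079 cells, 0.278% (95% interval 0.0574 to 0.810), and 13 of 1348 cells, 0.964% (95% interval 0.514 to 1.64). For 1 UMI of *Mki67* or *Top2a* the shares with these droplets were 39 of 1079 cells, 3.61% (95% interval 2.58 to 4.91), and 26 of 1348 cells, 1.93% (95% interval 1.26 to 2.81). At least 2 such UMIs were found in 5 of 1076 and 4 of 1336 annotated β-cells, and in 8 of 1079 and 16 of 1348 cells with the droplets added. With all cells outside the α-, β- and δ-cell classes that drew over 10% of their UMIs from *Ins1* and *Ins2* added, whatever their mitosis UMIs, at least 10 mitosis UMIs were found in 3 of 1228 cells, 0.244% (95% interval 0.0504 to 0.712), and 13 of 1596 cells, 0.815% (95% interval 0.434 to 1.39). On this wider set, *Mki67* or *Top2a* was found in 41 and 27 cells, 3.34% (95% interval 2.41 to 4.50) and 1.69% (95% interval 1.12 to 2.45).

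Summed over cells, the FAKi over vehicle ratio of the mitosis genes was 0.682 (95% interval 0.537 to 0.864) in annotated β-cells and 1.53 (95% interval 1.37 to 1.70) with the droplets of the T cell class added, which hold 395 and 863 mitosis UMIs beside 164 and 129 in β-cells. The replication genes stood at 0.843 (95% interval 0.792 to 0.898) without and 0.961 (95% interval 0.907 to 1.02) with the droplets. Both intervals take UMIs as independent, which UMIs of the same cell are not, and cover neither cells nor mice. Whether the difference between the libraries exceeds the spread between animals was not testable with 1 pool per condition.

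The annotated β-cells with an *Mki67* or *Top2a* UMI were also read for the other 16 mitosis genes. In the vehicle library, 4 of the 36 held a UMI of another mitosis gene, 11.1% (95% interval 3.11 to 26.1), beside 88 of the 1040 β-cells without either, 8.46% (95% interval 6.84 to 10.3). In the FAKi library 5 of the 14 did, 35.7% (95% interval 12.8 to 64.9), beside 87 of 1322, 6.58% (95% interval 5.30 to 8.05). So in the vehicle library the intervals of the cells with and without these 2 transcripts overlapped, and in the FAKi library they did not. The intervals of the 36 and the 14 cells overlapped between libraries. By β-cell cluster, cluster 0 held an *Mki67* or *Top2a* UMI in 30 of 650 cells against 8 of 675 in the FAKi library, while cluster 1 held 4 of 305 and 4 of 546 and cluster 10 held 2 of 121 and 2 of 115.

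The single mitosis genes were read in the same way, with the vehicle value first and the FAKi value second. *Mki67* had 401 and 199 UMIs over all cells, of which 257 and 135 lay in the class annotated as T cells and 140 and 10 in that class without its insulin-rich droplets, and a single cell of the vehicle library held 81. *Top2a* had 299 and 159 UMIs, with 182 and 118 in that class and 132 and 7 without the droplets. *Mki67* stood at 261 and 236 CPM in the class, 166 and 109.7 CPM without the droplets and 0.841 and 0.313 CPM in β-cells, and *Top2a* at 185 and 206 CPM, 157 and 76.8 CPM and 0.391 and 0.156 CPM.

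The class annotated as T cells had the highest level of all 18 mitosis genes in both libraries, also without the droplets. The droplets held 395 of its 1485 and 863 of its 1041 mitosis UMIs, so that 178 UMIs in 16 cells were left in the FAKi library. A single cell, with 337 UMIs of acinar markers and 10 of macrophage markers, held 155 of the 178. Without the droplets and this cell, the other 15 cells held 23 mitosis UMIs, or 352 CPM in place of 1952 CPM, and the class was highest for 8 of the 18 genes. For the vehicle cells the sum went from 1295 to 1160.2 CPM without the cell with most mitosis UMIs, 146 of 1090, and the class remained highest for all 18. Without all 47 cells with many mitosis UMIs, the class was highest for 5 of the 18 genes in the vehicle library and 1 of the 18 in the FAKi library. Its mitosis sum was then 126 and 46.4 CPM, from 73 and 2 UMIs, next to 96.3 and 78.2 CPM in B cells, from 61 and 6 UMIs.

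The kinase *Cdk1* stood at 88.2 and 108 CPM in the class annotated as T cells and at 80.8 and 121 CPM without the droplets. Its cyclins stood at 40.6 and 69.8 CPM and 41.6 and 109.7 CPM for *Ccna2*, 36.5 and 34.9 CPM and 35.6 and 43.9 CPM for *Ccnb1* and 61.9 and 97.7 CPM and 48.7 and 76.8 CPM for *Ccnb2*, the second pair of each without the droplets. In β-cells the same 4 genes had 8 and 2 UMIs, 8 and 12 UMIs, 6 and 5 UMIs and 2 and 10 UMIs over 1076 and 1336 cells. Of the mitotic kinases, *Aurkb* stood at 45.6 and 29.7 CPM in the T cell class and 44.0 and 54.8 CPM without the droplets, *Plk1* at 17.2 and 38.4 CPM and 16.6 and 65.8 CPM, and *Aurka* at 26.4 and 36.6 CPM and 19.0 and 65.8 CPM. *Aurka* had 34 and 36 UMIs in β-cells, nearly all as 1 UMI per cell, where *Aurkb* had 0 and 2 UMIs and *Plk1* 3 and 0 UMIs.

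The spindle genes *Tpx2* and *Nusap1* stood at 50.7 and 103 CPM and 65.9 and 82.0 CPM in the class annotated as T cells, and at 36.8 and 98.7 CPM and 66.5 and 54.8 CPM without the droplets. *Birc5* stood at 132 and 185 CPM and, without them, 126 and 197 CPM, and *Ube2c* at 137 and 167 CPM and 137 and 461 CPM. The checkpoint genes *Bub1* and *Bub1b* stood at 25.4 and 19.2 CPM and 22.3 and 15.7 CPM, at 19.0 and 21.9 CPM and 20.2 and 65.8 CPM without the droplets, and had 1 and 0 UMIs and 1 and 0 UMIs in β-cells. The FAKi values without the droplets are mostly those of the single cell named above, which held 41 of 42 UMIs of *Ube2c*, 17 of 18 of *Birc5*, 15 of 22 of *Cenpa*, 8 of 11 of *Cdk1* and 7 of 10 of *Mki67*, and all UMIs of *Bub1*, *Plk1*, *Aurka*, *Aurkb*, *Ccnb1*, *Cenpe*, *Cenpf* and *Nusap1*.

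Of the centromere genes, *Cenpe* and *Cenpf* stood at 48.7 and 68.0 CPM and 128 and 155 CPM in the T cell class, and at 45.1 and 21.9 CPM and 108 and 65.8 CPM without the droplets. *Cenpa*, the histone of the centromere, stood at 135 and 164 CPM and 127 and 241 CPM. Outside that class its highest levels were 64.7 and 39.1 CPM in B cells, 55.0 and 13.8 CPM in macrophages, 35.2 and 28.2 CPM in pericytes and 26.4 and 16.0 CPM in endothelial cells. Without the 47 cells, *Cenpa* stood at 20.05 and 13.8 CPM in macrophages, 24.2 and 28.2 CPM in pericytes and 25.1 and 16.2 CPM in endothelial cells. The pericyte values then rested on 18 and 7 UMIs, and the pericytes left out were all of the vehicle library. No order of the libraries could be read there.

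**Figure D3:**
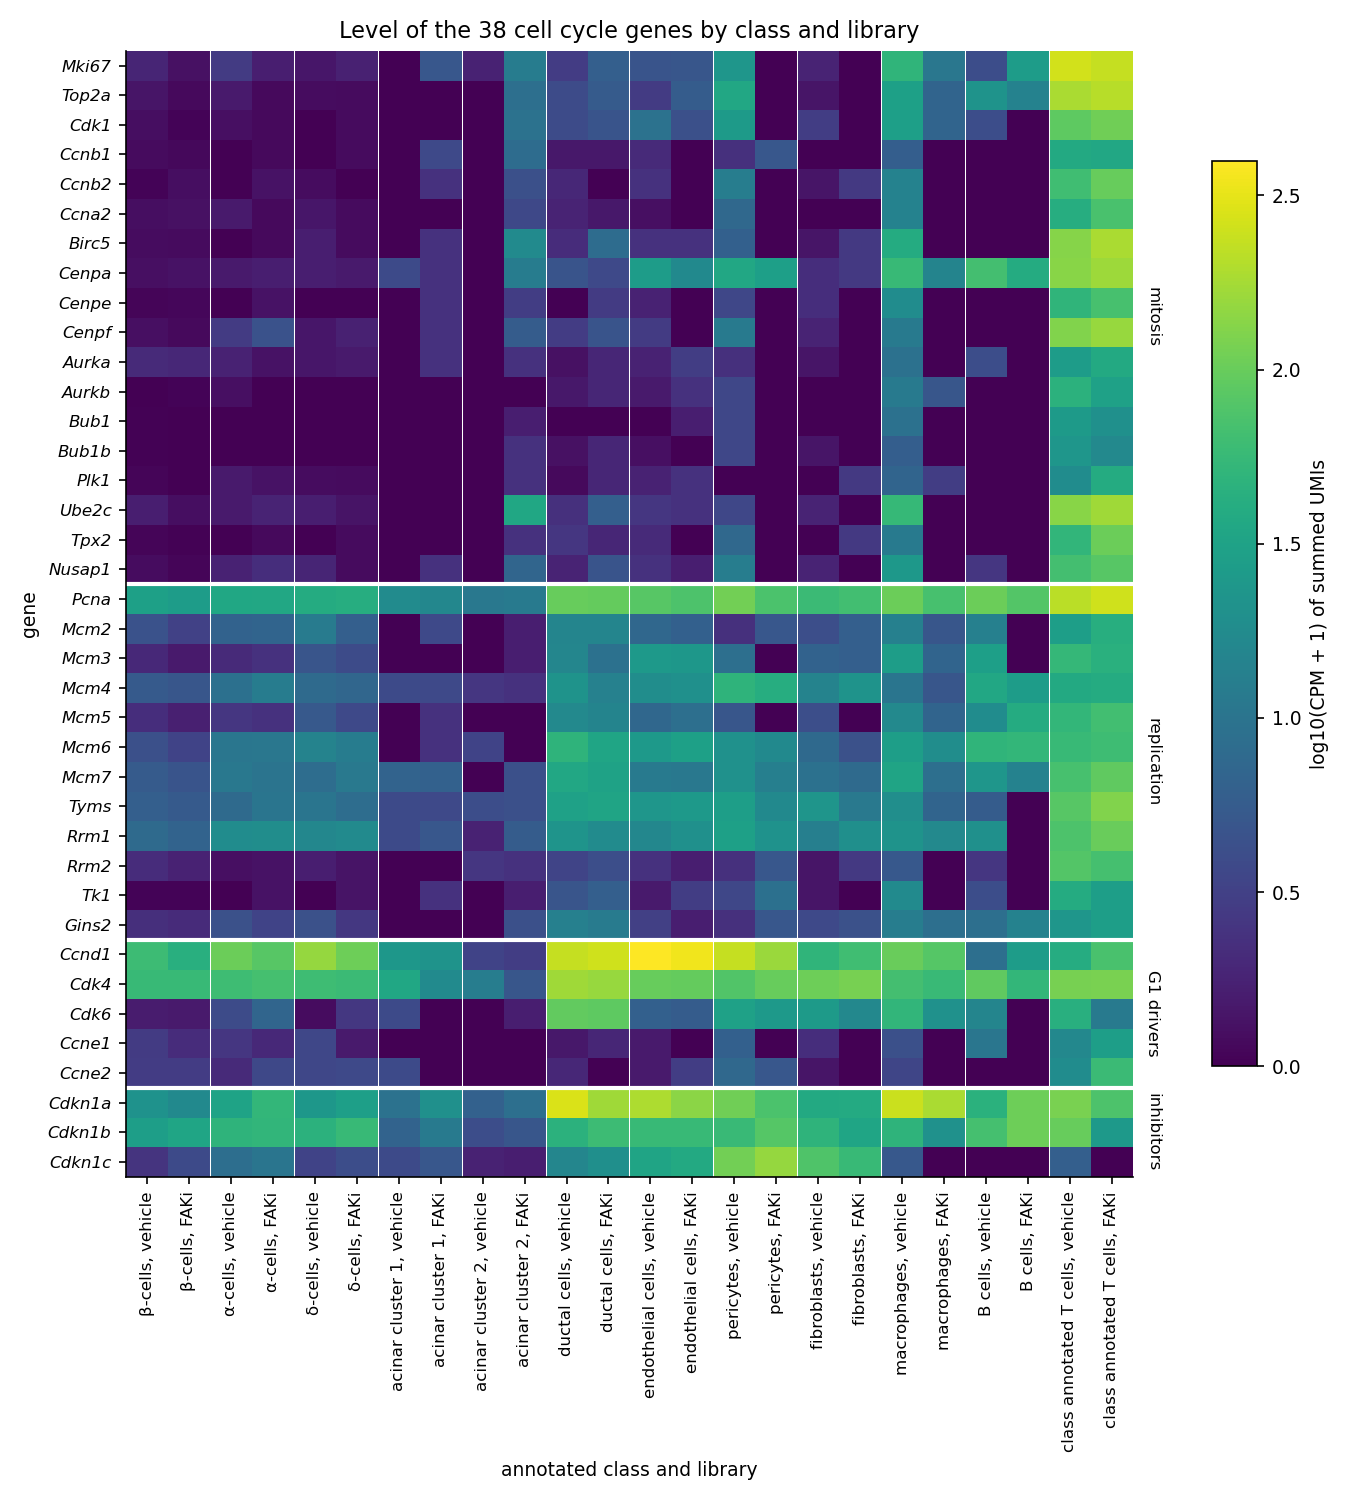
Level of the 38 genes (y axis, ordered by role) in each annotated class and library (x axis), as log10(CPM + 1) of UMIs summed over the cells of the class. The 18 mitosis genes are brightest in both columns of the class annotated as T cells, *Ccnd1* in endothelial cells, *Cdk6* in ductal cells and *Cdkn1c* in pericytes.

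The 4 cells of acinar cluster 2 with many mitosis UMIs, all of the FAKi library, held 24 to 72 mitosis UMIs and 3 to 12 replication UMIs. They held 2543 to 6683 UMIs of *Cpa1*, *Prss2* and *Cela1*, genes of acinar enzymes, at depths of 19333 to 54146 UMIs, and drew 0.192% to 0.766% of their UMIs from *Ins1* and *Ins2*. With them the mitosis genes summed to 0.776 CPM (vehicle) and 122 CPM (FAKi), and without them to 0.776 and 7.29 CPM. The share of such cells was 0 of 86 (95% interval 0 to 4.20) and 4 of 114, 3.51% (95% interval 0.964 to 8.74). In macrophages the mitosis genes summed to 387 and 41.3 CPM, and to 63.6 and 41.3 CPM without the 4 cells of the vehicle library that passed the threshold.

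All 12 replication genes were detected in both libraries of β-, ductal and endothelial cells and of the class annotated as T cells, and between 5 and 9 of them in acinar cluster 1. Their sum stood at 61.2 CPM (vehicle) and 51.6 CPM (FAKi) in β-cells, at 114 CPM (vehicle) and 105 CPM (FAKi) in δ-cells and at 97.6 CPM (vehicle) and 104 CPM (FAKi) in α-cells. It was higher in ductal cells, at 315 CPM (vehicle) and 276 CPM (FAKi), and in endothelial cells, at 212 CPM (vehicle) and 215 CPM (FAKi), and highest in the class annotated as T cells, at 803 and 947 CPM, or 754 and 801 CPM without its insulin-rich droplets. Without the 47 cells, the sum was 286 and 209 CPM in that class, 310.2 and 225 CPM in ductal cells and 212 and 187 CPM in endothelial cells. In endothelial cells 1 cell of the FAKi library, with 46 replication UMIs, thus turned the order of the libraries.

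Ratios of single genes were computed where a gene had at least 20 UMIs over both libraries in a class. A ratio of at least 2-fold was called past the fold, with no test. In β-cells 24 of the 38 genes had enough UMIs; 0 were at least 2-fold higher in the FAKi library and 2 at least 2-fold lower, where 1.24% and 2.38% of 13388 genes were. The 2 were *Mki67* with a ratio of 0.372 (95% interval 0.172 to 0.755) and *Ube2c* with a ratio of 0.394 (95% interval 0.167 to 0.867), from 28 and 12 UMIs and from 22 and 10 UMIs. The *Ube2c* UMIs of the vehicle library sat in 8 cells, 1 of which held 9, and without that cell the ratio was 0.667 and no longer past the fold. *Mki67* stood at 0.310 without the cell that held most of its UMIs. The other 3 mitosis genes with enough UMIs, *Ccna2*, *Cenpa* and *Aurka*, had ratios of 1.30, 1.25 and 0.918, with intervals that included 1. The 1 β-cell of the FAKi library with many mitosis UMIs decided the side of *Cenpa*, which stood at 0.579 (95% interval 0.169 to 1.82) without it.

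In β-cells, 11 of the 12 replication genes had enough UMIs, and all 11 ratios were below 1, from 0.552 to 0.904, beside a median over all genes of -0.04 on the log2 scale. On the same scale, with 1 CPM added to each level, the median of the 11 was -0.24. *Mcm2*, *Mcm3* and *Mcm6*, subunits of the replicative helicase, had ratios of 0.620 (95% interval 0.462 to 0.830), 0.552 (95% interval 0.303 to 0.983) and 0.724 (95% interval 0.542 to 0.965). The other helicase genes *Mcm4*, *Mcm5* and *Mcm7* had 0.879, 0.600 and 0.838, with intervals that reached past 1. *Pcna*, the clamp that holds polymerases on DNA, had 962 and 1003 UMIs at 28.9 and 26.1 CPM and a ratio of 0.904 (95% interval 0.827 to 0.989).

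The ratios of the genes of nucleotide supply in β-cells were also below 1. *Rrm1*, the large subunit of ribonucleotide reductase, stood at 6.88 and 5.68 CPM with a ratio of 0.825 (95% interval 0.683 to 0.998), and *Rrm2*, its S phase subunit, at 1.14 and 0.782 CPM with 0.685 (95% interval 0.410 to 1.13). *Tyms*, which makes thymidylate, had a ratio of 0.862 (95% interval 0.693 to 1.07), and *Gins2*, a partner of the helicase, of 0.888 (95% interval 0.564 to 1.40). *Tk1*, thymidine kinase, had too few UMIs, 2 and 2 UMIs. *Rrm2* and *Tk1* were also the replication genes most concentrated in the 47 cells, with 53.6% and 58.8% of their UMIs there, whereas *Mcm4* and *Pcna* had 6.59% and 7.57%.

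The other classes are given with the median log2 ratio, with 1 CPM added, of these genes and of all genes. In α-cells, 6 of the 8 replication genes with enough UMIs had ratios above 1, from *Mcm6* at 1.02 to *Mcm4* at 1.38 (95% interval 0.892 to 2.19), and all 8 intervals included 1, with medians of 0.05 and 0.03. In δ-cells 7 of 10 were below 1, with medians of -0.27 and -0.05, led by *Mcm2* at 0.463 (95% interval 0.281 to 0.748) and *Gins2* at 0.474 (95% interval 0.185 to 1.14). Ductal cells had 8 of 12 below 1, with medians of -0.18 and 0.01, and with *Mcm3* at 0.575 (95% interval 0.326 to 0.962), *Mcm4* at 0.624 (95% interval 0.399 to 0.945) and *Mcm6* at 0.683 (95% interval 0.520 to 0.887). In endothelial cells 5 of 9 were above 1, with medians of 0.12 and -0.04, and all 9 intervals included 1. The ductal and endothelial counts rested on few cells. Without the 47 cells, which take 2 and 2 ductal cells and 1 and 1 endothelial cells away, 0 of 12 ductal ratios were above 1, from *Mcm3* at 0.431 to *Rrm2* at 0.972. In endothelial cells 2 of 9 were then above 1, *Mcm6* at 1.06 and *Rrm1* at 1.21, while *Mcm4*, *Mcm5* and *Tyms* turned from 1.09, 1.26 and 1.12 to 0.874, 0.954 and 0.981, and all 9 intervals still included 1. In β-cells all 11 ratios stayed below 1 without these cells, and in α- and δ-cells no cell was among the 47.

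**Figure D4:**
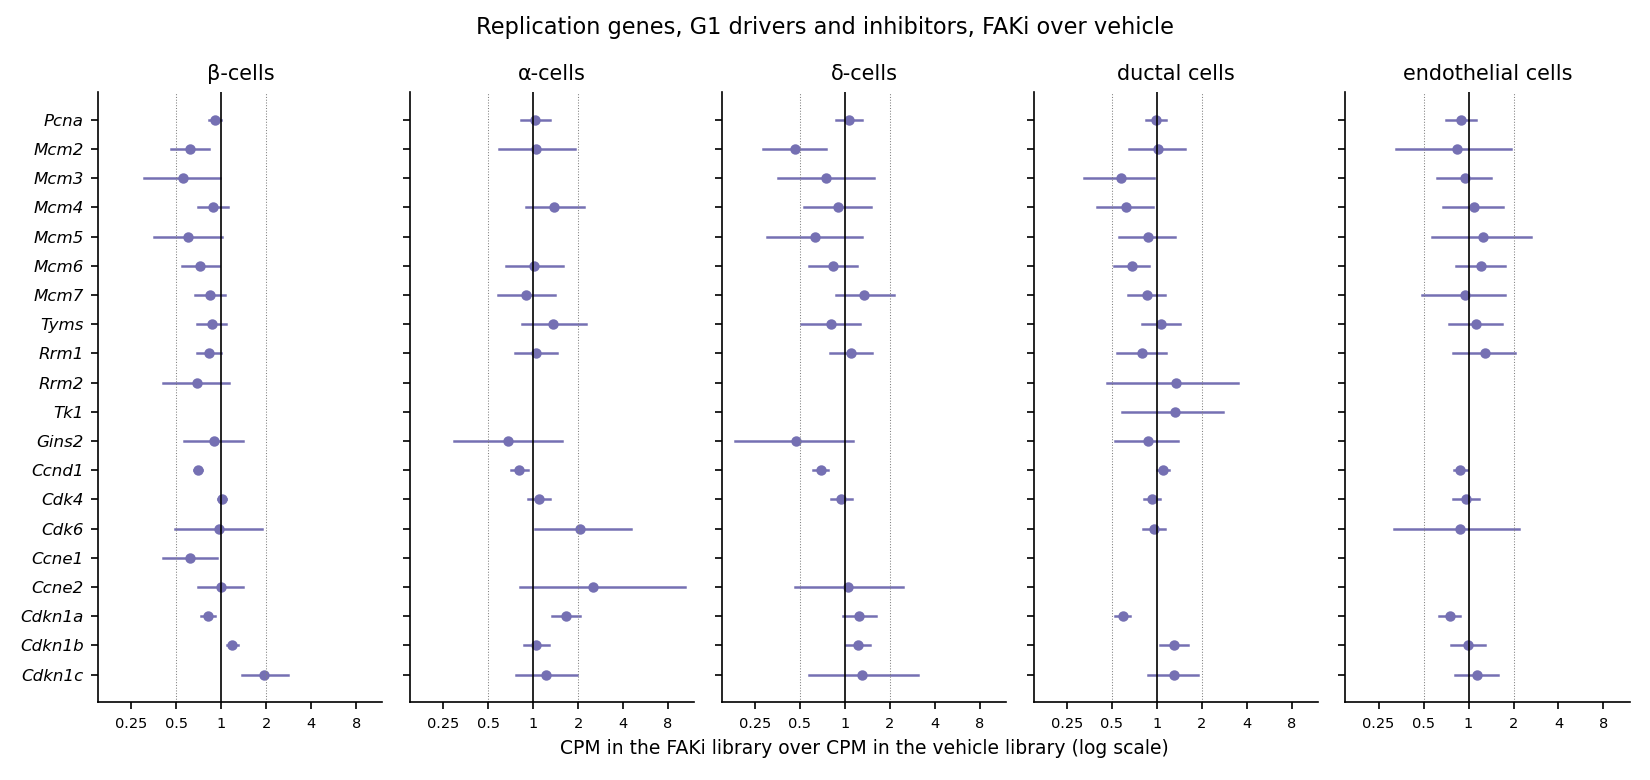
Ratio of CPM in the FAKi library over CPM in the vehicle library (x axis, log scale) for the replication genes, G1 drivers and inhibitors (y axis) with at least 20 UMIs in 5 classes; points are ratios, lines exact conditional binomial 95% intervals, dotted lines mark 2-fold. *Ccnd1* lies left of 1 in β-, α-, δ- and endothelial cells, and *Cdkn1a* lies left of 1 in β-, ductal and endothelial cells and right of 1 in α-cells.

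Past the fold in α-cells were 2 of 16 genes with enough UMIs, both higher in the FAKi library, where 2.21% of genes were higher and 1.27% lower. These were the G1 genes *Cdk6*, at 2.06 (95% interval 1.03 to 4.50) from 11 and 36 UMIs, and *Ccne2*, at 2.52 (95% interval 0.814 to 10.4) from 4 and 16 UMIs. The mitosis gene *Cenpf*, with 7 and 21 UMIs in α-cells, had a ratio of 1.89 and an interval that included 1. In δ-cells, 0 of 16 were higher and 2 lower, the *Mcm2* and *Gins2* given above, against 1.21% and 1.77% of genes. In ductal cells 2 of 24 were higher and 0 lower, against 2.35% and 3.42%, and in endothelial cells 0 of 18 were higher and 1 lower, against 1.53% and 4.86%. The ductal genes were *Mki67* at 2.64 (95% interval 1.05 to 6.53) and *Birc5* at 6.57 (95% interval 2.56 to 18.9), and the endothelial gene was *Cdk1* at 0.393 (95% interval 0.120 to 1.02). Leaving out the 1 cell with most UMIs of the gene brought *Birc5* to 2.08 and *Mki67* to 0.972 in ductal cells, and moved *Top2a* from 1.60 to 4.10. Without the 47 cells, ductal cells had 6 and 0 UMIs of *Mki67* and 0 and 3 of *Birc5*. In acinar cluster 1 only *Ccnd1* and *Cdk4* had enough UMIs. Of these, 0 were past the fold upward and *Cdk4* was past it downward, at 0.480 (95% interval 0.197 to 1.17), against 8.68% and 3.24% of genes. Without the cell with most of its UMIs, *Cdk4* stood at 0.638 there and was no longer past the fold.

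Of the G1 drivers, *Ccnd1* (cyclin D1) had 10487 UMIs over all cells, of which the 47 cells held 1.75%. It stood at 396 CPM (vehicle) and 349 CPM (FAKi) in endothelial cells and at 232 and 256 CPM in ductal cells. In β-cells it was lower in the FAKi library, 60.1 and 42.1 CPM, a ratio of 0.700 (95% interval 0.655 to 0.748). Its ratios were 0.688 (95% interval 0.616 to 0.768) in δ-cells, 0.810 (95% interval 0.708 to 0.928) in α-cells, 0.883 (95% interval 0.798 to 0.976) in endothelial cells and 1.10 (95% interval 0.997 to 1.22) in ductal cells. Without the 47 cells the endothelial ratio of *Ccnd1* was 0.778 (95% interval 0.699 to 0.865). In the 3 endocrine classes and in endothelial cells the interval lay below 1, and no ratio passed 2-fold.

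*Cdk4*, the kinase partner of the D-type cyclins, stood at 54.9 and 55.4 CPM in β-cells, with a ratio of 1.01 (95% interval 0.948 to 1.08). Its ratio in acinar cluster 1, given above, came from 12 and 12 UMIs and had an interval that included 1. In acinar cluster 2, which had under 100 cells in the vehicle library, it was 0.342 (95% interval 0.109 to 0.933) from 15 and 6 UMIs. *Cdk6*, the related kinase, was highest in ductal cells in both libraries, at 92.2 and 88.4 CPM there and at 0.571 and 0.547 CPM in β-cells. Pericytes, fibroblasts and macrophages held *Cdk6* at 30.0 and 24.2 CPM, 25.0 and 15.4 CPM and 50.8 and 19.7 CPM. Of the E-type cyclins, which carry cells into S phase, *Ccne1* stood at 1.80 and 1.12 CPM and *Ccne2* at 1.92 and 1.90 CPM in β-cells, and *Ccne1* had a ratio of 0.621 (95% interval 0.410 to 0.935) there. Of their UMIs, 17.3% for *Ccne1* and 22.3% for *Ccne2* lay in the 47 cells.

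The inhibitors had 1.78% of their UMIs in the 47 cells, near the 1.12% over all genes, and had different class patterns. *Cdkn1a* (p21), an inhibitor induced by p53, stood at 284 and 168 CPM in ductal cells, 245 and 185 CPM in macrophages, 187 and 139.7 CPM in endothelial cells and 19.9 and 16.2 CPM in β-cells. Its ratio was 0.591 (95% interval 0.526 to 0.662) in ductal cells, 0.746 (95% interval 0.637 to 0.872) in endothelial cells and 0.815 (95% interval 0.729 to 0.910) in β-cells, and 1.66 (95% interval 1.34 to 2.07) in α-cells. Thus its direction was opposite in α-cells, and in δ-cells, at 1.24 (95% interval 0.965 to 1.61), the interval included 1. The difference between classes was not tested, since each class has 1 library per condition.

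*Cdkn1b* (p27), which keeps resting cells out of S phase, stood at 27.7 and 32.9 CPM in β-cells, from 923 and 1263 UMIs, with a ratio of 1.19 (95% interval 1.09 to 1.29). Its ratios of 1.22 (95% interval 1.02 to 1.47) in δ-cells and 1.31 (95% interval 1.05 to 1.61) in ductal cells also had intervals above 1, and those in α- and endothelial cells, 1.05 and 0.990, did not. *Cdkn1c* (p57), an imprinted inhibitor, was highest in pericytes, at 111 and 153 CPM, and fibroblasts, at 75.1 and 54.8 CPM. In β-cells it stood at 1.47 and 2.87 CPM from 49 and 110 UMIs, with a ratio of 1.95 (95% interval 1.38 to 2.78), just under the 2-fold limit. Without the cell that held most of its UMIs, the ratio of *Cdkn1c* in β-cells was 1.65. In the other 4 classes its ratios ran from 1.13 to 1.30, with intervals that included 1.

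Other genes of the same pathways were counted from lists of 52 mitosis genes, 24 replication genes, 9 G1 drivers and 11 inhibitors and pocket proteins. In β-cells, where 1.24% of all genes were past the fold upward and 2.38% downward, 26 of the 52 mitosis genes had enough UMIs, with 12 ratios above 1 and 14 below. None was past the fold upward and 1 downward, *Pttg1* (securin) at 0.496 (95% interval 0.222 to 1.05). Of the replication genes 20 had enough, with 8 above 1 and 12 below, 0 past the fold upward and 3 downward. Among these were *Ung*, which removes uracil from DNA, at 0.438 (95% interval 0.338 to 0.565) from 186 and 94 UMIs, and *Clspn*, a replication checkpoint gene, at 0.467 (95% interval 0.158 to 1.26). All 9 G1 drivers had enough, with 1 above 1 and 8 below and none past the fold, and all 11 inhibitors did, with 3 above and 8 below and 1 past the fold upward, *Cdkn2a*, the gene of p16 and p19Arf, at 3.28 (95% interval 1.54 to 7.77) from 9 and 34 UMIs. These 4 genes were named after their values were seen.

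*Ccnd2*, the main D-type cyclin of mouse β-cells, stood at 798 and 763 CPM in β-cells, and *Ccnd3* at 15.8 and 15.5 CPM. *Cdc25a*, a phosphatase that activates cyclin-dependent kinases, stood at 11.8 and 11.1 CPM. The antiproliferative gene *Btg2* stood at 577 and 469 CPM, *Cdkn2d* (p19) at 29.3 and 24.1 CPM and *Trp53* (p53) at 11.8 and 11.6 CPM. Among the replication genes, *Dut*, which breaks down dUTP, stood at 34.9 and 38.8 CPM, *Slbp*, the binder of histone mRNA, at 11.4 and 11.8 CPM, and *Dnmt1*, the maintenance DNA methyltransferase, at 8.05 and 7.63 CPM. The 3 of the other mitosis list with the highest level over all cells, *H2afz*, *Hmgb2* and *Bub3*, stood at 203 and 237 CPM, 12.6 and 12.9 CPM, and 29.1 and 29.8 CPM. These genes are expressed broadly and not only in dividing cells.

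The other mitosis genes had 15.3% of their UMIs in the 47 cells, the other replication genes 9.50%, the other G1 drivers 0.843% and the other inhibitors and pocket proteins 1.09%, beside 1.12% over all genes. Of genes outside the members with at least 100 UMIs, the 10 with most UMIs in these cells relative to the other cells of the same class and library were *Pbk*, *Prtn3*, *Kif11*, *Hmmr*, *Hist1h2ap*, *Pclaf*, *Cdca3*, *Prc1*, *Cenpm* and *E2f7*. With annotated β-cells as the reference for the insulin-rich droplets, 7 of these were among the first 10, led by *Prtn3*, while *Hist1h2ap*, *Cenpm* and *E2f7* gave way to *Fcrla*, *Ckap2l* and *Phgr1*. *Fcrla* had only 4 of its 104 UMIs in the 47 cells, set against an expected 0.0111. *Pbk*, a mitotic kinase, had 92.9% of its UMIs in the 47 cells, *Hmmr*, a spindle protein, 94.8%, *Kif11*, the spindle motor, 69.1%, and *Prc1*, which bundles midzone microtubules, 79.8%. *Pclaf*, a partner of *Pcna*, had 77.9% and *Hist1h2ap*, a histone gene, 51.0%. *Prtn3*, a protease of myeloid precursors, stood out from the rest with 98.0% of its 1129 UMIs in the 47 cells, and is no gene of the cell cycle.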

How the data were processed

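Single cells of 2 libraries, 1 per condition and each sequenced on 4 lanes, were captured with the Chromium 3.1 chemistry. Per the submitters' processing notes the reads were aligned to mm10 with Cell Ranger and the cells clustered with Seurat 3.1. The authors deposited 1 table of UMI counts per gene and cell, with cells over 8% mitochondrial UMIs removed, and a deposited table of the class, cluster, library and mitochondrial percent of each cell. Counts were used as deposited, and the classes are the authors' annotation.

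Here UMIs were summed over cells of a class and library and divided by the total, giving CPM. Levels have exact Poisson 95% intervals, shares exact Clopper-Pearson intervals and ratios exact conditional binomial intervals. A count of 0 was read as up to 3 counts. All intervals cover counting error only, since UMIs of 1 cell and cells of 1 pool are not independent replicates. With 1 library per condition no test was run. Ratios were formed for genes with at least 20 UMIs in a class of at least 20 cells in each library. They were counted in classes of at least 100 cells in each library, past the fold at 2. The log2 medians used 1 CPM as pseudocount. The interval and ratio code was tested on simulated data. Insulin-rich means over 10% of UMIs from *Ins1* and *Ins2*. Thinning and scrublet (scanpy 1.11.5) used a fixed seed, with scipy 1.17.1 for the intervals, matplotlib 3.10.9 for figures and pandas 2.3.3, numpy 2.4.6 and python 3.11.15 throughout. Alternatives were other thresholds, depths, cell filters, scalings and pseudocounts.

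The 38 genes and all lists were chosen with earlier results of these data known. Named were all 38, the 3 genes of each other list with the highest CPM over all cells, and the 10 other genes with at least 100 UMIs that were most concentrated in the cells with at least 10 mitosis UMIs. *Pttg1*, *Ung*, *Clspn*, *Cdkn2a*, *Fcrla*, *Ckap2l* and *Phgr1* were named after their values were seen. The values of 1 gene of the other replication list are not reported here.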

Additional observations from a re-analysis of the deposited data

How the results depend on the processing

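Leaving out a replicate was not possible with 1 library per condition. No paired analysis was possible because each condition was 1 library and its lanes hold the same cells. The percent of β-cells with *Mki67* or *Top2a* was 0.0941 (vehicle) and 0 (FAKi) after thinning to 1000 UMIs, 0.193 and 0 after thinning to 3000, 0.465 and 0.299 with at least 2 UMIs, and 0.929 and 0.374 for *Top2a* alone. In the class annotated as T cells it was 27.3 and 75 in cells under 5% mitochondrial UMIs and 6.02 and 23.1 after thinning to 1000 UMIs. It was 8.93 in the vehicle library with at least 2 UMIs and 18.8 in the FAKi library without insulin-rich cells. Cells with at least 10 mitosis UMIs numbered 15 in the vehicle library under the mitochondrial limit. In the FAKi library they numbered 11 without the insulin-rich cells outside the α-, β- and δ-cell classes, of which 3 were in the T cell class. The *Mki67* ratio in ductal cells turned to 0.972 without the cell with most of its UMIs. The cause was not tested. For these quantities, 14 of 38 alternative percents of cells with *Mki67* or *Top2a* and 3 of 32 counts of cells with many mitosis UMIs moved beyond the 95% interval of the value or, for counts, by over 1.5 times, and 0 of 30 list medians moved by more than the typical interval half-width of their genes. For the other classes and lists, 24 of 72 percents, 6 of 18 counts, 27 of 280 CPM and 0 of 168 medians did. These limits are wide, and 2 of the 30 and 14 of the 168 medians lay on the other side of 0, as for replication genes in endothelial cells, at -0.18 without the 47 cells. Of 200 gene ratios 5 moved and 1 with an interval apart from 1 changed direction, while 20 in all lay on the other side of 1. Without the 47 cells, 13 of 98 ratios did. Adding the insulin-rich droplets to β-cells, leaving them or the 47 cells out of the order of classes, leaving the 47 cells out of the gene ratios, leaving the cell with most mitosis UMIs out of the T cell class, and the β-cell reference for concentrated genes were chosen after seeing the data.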
